A study of Mus musculus with 38 samples.

Results

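Stress keratins and antimicrobial genes of skin were followed here through 10 genes of the count table: Krt6a, Krt6b, Krt16 and Krt17, the S100 genes S100a8 and S100a9, the beta-defensins Defb1, Defb6 and Defb14, and Wfdc12. They were chosen by symbol, and all 10 were found among the 19218 genes used. Tail skin of mice was sequenced in bulk in 38 libraries, to ask how skin changes in a vitiligo model, after ABX given against gut microbes, and after hippuric acid, a metabolite linked to gut microbes. The groups were 9 libraries with vitiligo induction (vitiligo), 9 wild type libraries without it (no_induction), 6 with induction and ABX (vitiligo_ABX), 6 wild type libraries with ABX (no_induction_ABX), 5 wild type libraries with intraperitoneal hippuric acid (hippuric_acid) and 3 wild type libraries with intraperitoneal vehicle (vehicle). The labels give no strain, age, dose, agents in ABX or manner of induction, and do not say that libraries came from separate mice, so each p-value reflects the spread from library to library, which may be technical.

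Keratins are the intermediate filament proteins of epithelial cells and work as pairs of a type II and a type I chain. Krt6a and Krt6b are type II keratins that pair with the type I keratins Krt16 and Krt17. In healthy skin they are made mainly in the hair follicle, and after wounding or in inflammation the epidermis between follicles makes them too, hence the name stress keratins. S100a8 and S100a9 form calprotectin, a calcium-binding pair that withholds metal ions from microbes and is abundant in neutrophils and in stressed keratinocytes. Beta-defensins are small cationic peptides that damage microbial membranes, and Wfdc12 encodes a small secreted protein of the WAP family, whose members inhibit proteases and can kill bacteria.

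Each library held between 15.3 and 27.9 M counts. Levels are counts per M counts on TMM-scaled totals (CPM), where TMM is a scaling that sets most genes equal between libraries, and are given as mean ± SD. Markers of keratinocytes between follicles (10 of 10 reaching 1 CPM) were present in every group, at a summed 13370 to 46659 CPM over the libraries, as the label tail skin implies. With totals alone in place of TMM the median log2 fold change of all genes moved from 0.02 to 0.14 in vitiligo_ABX against vitiligo, from 0 to 0.15 in no_induction_ABX against no_induction and from 0.02 to 0.19 in hippuric_acid against vehicle. The share of calls that were higher moved with it, from 38.6% to 74.7%, from 49.4% to 79.3% and from 39.8% to 76.3%, so each change below is relative to the bulk of genes. Summed adipocyte markers (15 of 15 reaching 1 CPM) ran from 515 to 1766 CPM in the 17 libraries with ABX or hippuric acid and from 893 to 10074 CPM in the other 21, and the part of this in the results below was not tested. The TMM factors split the same way without overlap, from 1.014 to 1.114 in those 17 libraries and from 0.878 to 1.007 in the other 21. The labels do not say whether the 17 also formed a set of their own. Each comparison of ABX or hippuric acid with a group lacking it crosses this divide, so treatment and such a set cannot be told apart. In bulk samples, fewer cells of a type and less RNA per cell cannot be told apart.

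RefSeq promoter windows (build GRCm38.p6) matched 4 of the 10 genes, among them Wfdc12 and Defb6, which the results below turn on, and are shown to set them side by side. For each, the 250 bases before the start are printed 5′ to 3′ on the strand of the gene: Wfdc12 (chr2:164190559-164190808, minus strand), S100a8 (chr3:90668821-90669070, plus strand), S100a9 (chr3:90695722-90695971, minus strand) and Defb6 (chr8:19225228-19225477, plus strand). Capitals mark matches on either strand to TTNNGNAA (the C/EBP factors of differentiating keratinocytes and myeloid cells), TGACNNNGC (the antioxidant response element, bound by Nrf2) and TATAAA (a form of the TATA box).
Wfdc12: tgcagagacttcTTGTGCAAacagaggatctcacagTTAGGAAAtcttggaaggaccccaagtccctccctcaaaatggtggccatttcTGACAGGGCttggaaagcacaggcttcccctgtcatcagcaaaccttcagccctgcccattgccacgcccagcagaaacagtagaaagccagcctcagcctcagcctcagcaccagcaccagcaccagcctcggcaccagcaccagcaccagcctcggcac
S100a8: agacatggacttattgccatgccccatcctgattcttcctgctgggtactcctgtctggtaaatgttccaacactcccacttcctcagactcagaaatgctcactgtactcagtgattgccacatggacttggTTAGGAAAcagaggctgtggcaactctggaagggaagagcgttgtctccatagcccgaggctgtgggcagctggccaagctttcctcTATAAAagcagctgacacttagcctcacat
S100a9: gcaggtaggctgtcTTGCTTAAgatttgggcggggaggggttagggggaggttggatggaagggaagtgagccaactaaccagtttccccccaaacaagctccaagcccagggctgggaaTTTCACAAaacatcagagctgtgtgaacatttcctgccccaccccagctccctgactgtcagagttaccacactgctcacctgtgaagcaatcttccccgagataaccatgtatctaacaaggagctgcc
Defb6: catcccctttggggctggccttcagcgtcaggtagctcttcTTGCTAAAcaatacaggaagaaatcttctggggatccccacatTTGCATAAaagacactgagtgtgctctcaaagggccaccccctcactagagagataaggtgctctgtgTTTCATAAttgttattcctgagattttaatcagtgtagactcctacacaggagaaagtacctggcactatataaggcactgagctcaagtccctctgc
A C/EBP match stood in all 4 windows, once for S100a8, 2 times each for S100a9 and Wfdc12 and 3 times for Defb6, while 36.8% of all 32851 windows of 250 bases in the table held at least 1. The antioxidant response element matched in Wfdc12 only (10.2% of all windows), 161 to 153 bases before the start, and TATAAA in S100a8 only (12.4% of all windows), 30 to 25 bases before it. Other forms of the TATA box were not searched, such as the tatataag near the end of the Defb6 window, so their absence is not shown. The AP-1 motif TGANTCA (6.75% of all windows), an NF-kB motif (1.41%) and the STAT motif TTCNNNGAA (7.02%) were also searched and had no match in these letters. No capitals of different motifs overlapped. The matches describe the letters and were not tied to the measured levels by any test.

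Wfdc12 showed the widest range between groups, a 10.6-fold difference between the highest and lowest group mean. It ran from 52.0 to 433 CPM (median 118) in no_induction, from 42.8 to 253 CPM (median 75.4) in vitiligo, and stood at 52.4, 92.1 and 249 CPM in vehicle. In no_induction_ABX it ran from 2.87 to 26.7 CPM (median 13.6), and in vitiligo_ABX from 8.85 to 28.2 CPM (median 13.2). All 12 ABX libraries therefore lay below all 21 libraries without ABX or hippuric acid. The share of all genes that separate these libraries so was not computed, so this does not set Wfdc12 apart. The 5 hippuric_acid libraries (30.2, 39.7, 43.3, 44.3 and 85.8 CPM) lay above every ABX library and reached into the range of the other groups.

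**Figure D1:**
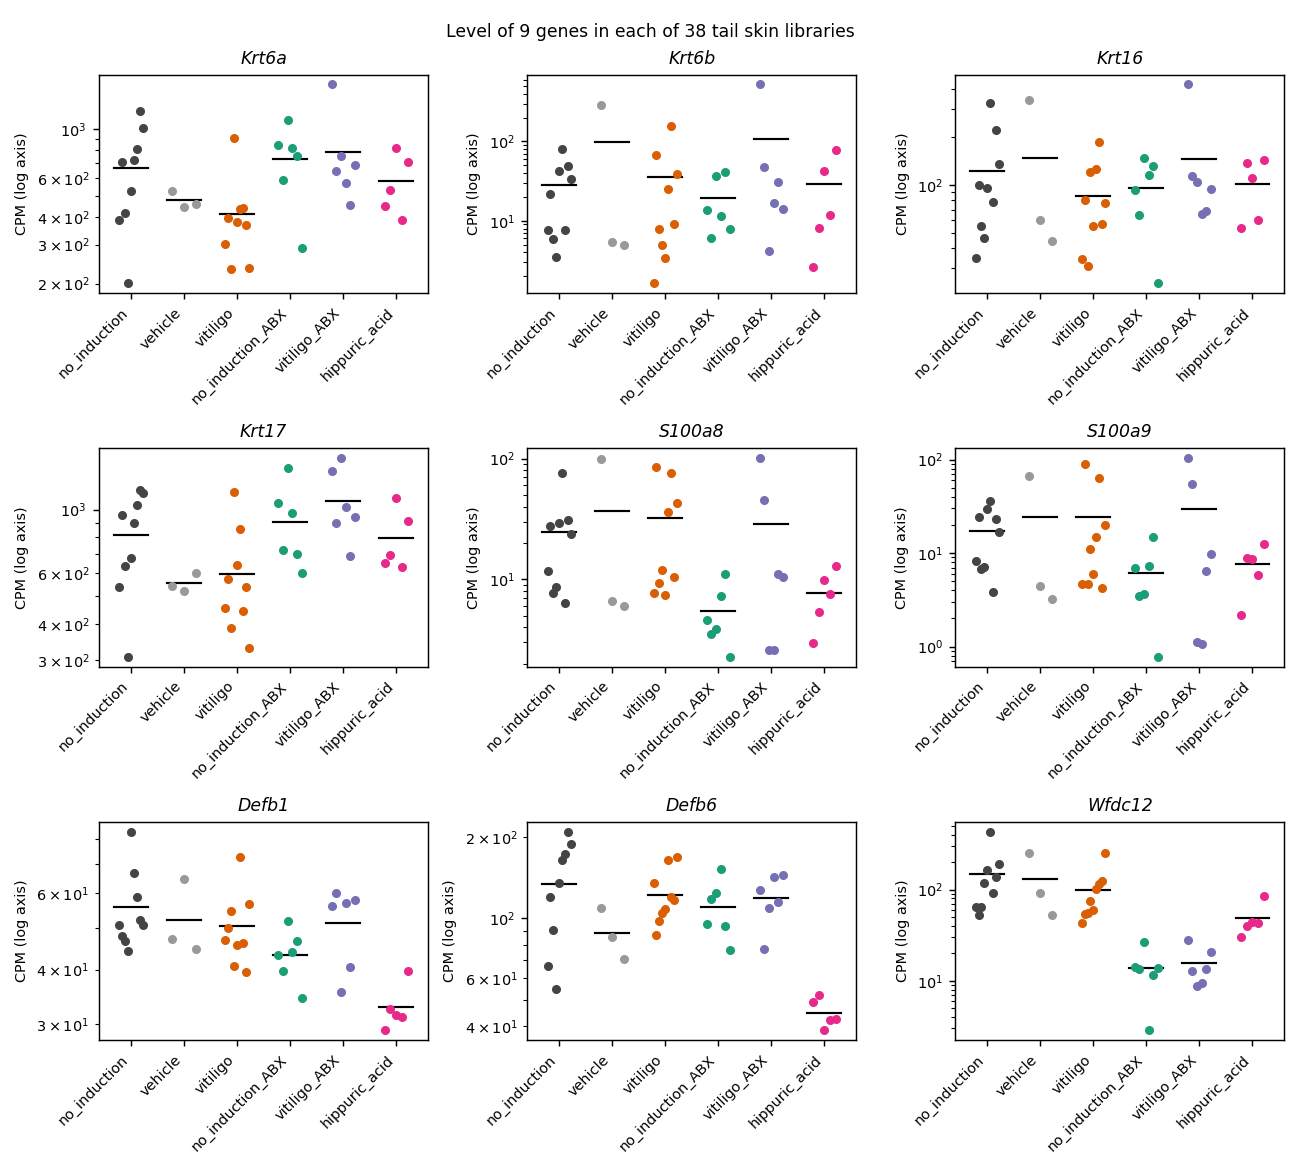
Level of 9 of the 10 genes (CPM, log axis) in each of the 38 libraries, by group, with 1 point per library and a bar at the group mean. Wfdc12 in both ABX groups (2.87 to 28.2 CPM) lies below all libraries of the other groups, Defb6 in hippuric_acid (38.5 to 51.8 CPM) lies below all other libraries, and Krt6b spreads from 1.64 to 523 CPM.

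Among the 9 genes tested in vitiligo_ABX against vitiligo, 3 passed the test (13.1% of all 14014 genes tested did), Wfdc12 falling and Krt6a and Krt17 rising. Wfdc12 was 15.6 ± 7.51 CPM (n = 6) with ABX and 98.0 ± 65.0 CPM (n = 9) without. Its groups did not overlap (2.03% of genes lay without overlap in this direction), and its log2 fold change was -2.65 (SE 0.40, edgeR adjusted p = 0.000403). Leaving out each library in turn kept it between -2.90 and -2.33, with every adjusted p at or under 0.0022. Without induction, Wfdc12 was 13.7 ± 7.63 CPM (n = 6) with ABX and 146 ± 118 CPM (n = 9) without, again with no overlap (4.43% of genes). The interaction of induction and ABX for Wfdc12 was 0.74 on the log2 scale (95% interval -0.56 to 2.05, edgeR adjusted p = 0.477), so the falls were not shown to differ.

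Wfdc12 has relatives in the table, of which 7 of 17 other WAP genes passed the low-count filter. With ABX under induction 4 of these 7 were lower and 1 higher, with a median log2 fold change of -1.01 beside 0.02 over all genes. Wfdc21, Wfdc17 and Wfdc18 fell by 1.65, 1.43 and 1.73 on the log2 scale, and Wfdc1 rose by 0.70 (edgeR adjusted p = 0.00038, 0.000523, 0.00202 and 0.0143). With ABX and no induction 4 of 7 were lower and none higher: Wfdc5, Wfdc18, Wfdc21 and Wfdc17 fell by 1.11, 1.90, 0.75 and 0.95 (edgeR adjusted p = 0.000125, 0.000237, 0.00939 and 0.012). The share of all genes called lower was 8.05% and 15.8% in these comparisons. Summed keratinocyte markers ran from 14473 to 24206 CPM in vitiligo_ABX and from 18426 to 36340 in vitiligo, with 3 of 10 called lower (Krt2, Krt10 and the envelope precursor Ivl). They ran from 14105 to 27408 CPM in no_induction_ABX and from 22151 to 46659 in no_induction, again with 3 of 10 called lower, and their part in the fall of Wfdc12 was not tested. By group medians Krt10 and Krt2 were the largest parts of these sums. Trp63 and Itgb4 had medians of 256 and 168 CPM in vitiligo_ABX and 214 and 141 CPM in vitiligo. They had 245 and 219 CPM in no_induction_ABX and 262 and 187 CPM in no_induction. Trp63 and Itgb4 were chosen after their values were seen, and other markers went both ways. Krt5, Krt14 and Dsg1a had medians of 2473, 2358 and 903 CPM in vitiligo_ABX and 2577, 2765 and 1412 CPM in vitiligo. Krt1 and Col17a1 had 1210 and 631 CPM beside 1180 and 569 CPM. Without induction the medians of each of these other markers differed in the same direction.

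Krt6a and Krt17 were higher in vitiligo_ABX than in vitiligo. Krt17 ran from 688 to 1511 CPM (median 982) with ABX and from 331 to 1153 CPM (median 540) without. Its groups overlapped, and all 6 ABX libraries lay above the vitiligo mean. The log2 fold change of Krt17 was 0.85 (SE 0.25, edgeR adjusted p = 0.0311). Krt6a ran from 453 to 1591 CPM (median 669) against 234 to 912 CPM (median 379), with a log2 fold change of 0.93 (SE 0.29, edgeR adjusted p = 0.0424), and here too the groups overlapped with all 6 above the vitiligo mean. Both calls lay near the threshold. Without vitiligo_ABX library 001 the log2 fold change of Krt6a was 0.60 (edgeR adjusted p = 0.142) and that of Krt17 0.77 (edgeR adjusted p = 0.0678). The call of Krt6a was lost without any 1 of the 15 libraries other than vitiligo 001, vitiligo 062 and vitiligo_ABX 005, at 0.86 or more in the other 11 losses. That of Krt17 was lost without any 1 of 8, namely vitiligo 000, 006, 047, 260 or the library with the least Krt17 (331 CPM), or vitiligo_ABX 001, 003 or 004. Without any 1 library the log2 fold change of Krt17 stayed between 0.72 and 1.02.

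The partner keratins had wider errors in the same comparison. Krt16 had a log2 fold change of 0.78 (SE 0.43) and Krt6b of 1.59 (SE 1.02), and neither passed the test (edgeR adjusted p = 0.245 and 0.321). Of 12 markers of the outer root sheath and companion layer, the follicle layers where Krt6a and Krt17 are made, 4 were higher and none lower. These were Lgr5 (1.07 on the log2 scale), Krt75 (0.98), Sox9 (0.81) and Tbx1 (0.75), with edgeR adjusted p from 0.00231 to 0.0216, where 5.06% of all genes were called higher. The summed level of the list ran from 2064 to 3063 CPM in vitiligo_ABX and from 1366 to 3173 CPM in vitiligo, and its part in the rise of Krt6a and Krt17 was not tested. Among 18 other epithelial keratins 3 were higher and 3 lower, and the 3 lower ones were the suprabasal keratins Krt2 (-1.12), Krt78 (-1.03) and Krt10 (-0.82).

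Without induction the keratins did not pass the test with ABX. In no_induction_ABX against no_induction Krt6a had a log2 fold change of 0.14 (95% interval -0.57 to 0.86) and Krt17 of 0.16 (-0.38 to 0.69). The interaction for these was 0.78 (-0.19 to 1.74) and 0.68 (-0.09 to 1.44), with edgeR adjusted p of 0.292 and 0.245, so the responses with and without induction were not shown to differ. None of the 9 genes passed the interaction test, where 11.5% of 14310 genes did. At an unadjusted p under 0.05 there were 0 as well (27.5% of all genes), by DESeq2 0 (14.4%), and limma-voom called 1, Krt17 (31.1%).

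Among the 9 genes tested in no_induction_ABX against no_induction, 3 were lower: S100a8, Defb1 and Wfdc12 (31.1% of 13971 genes were called, 15.8% as lower). S100a8 ran from 6.30 to 75.4 CPM (median 23.7) without ABX and from 2.28 to 11 CPM (median 4.24) with it. The groups overlapped, with all 6 ABX libraries below the no_induction mean. Its log2 fold change was -2.18 (SE 0.57, edgeR adjusted p = 0.01), and it was called without any 1 library (highest adjusted p 0.0258). S100a9, its calprotectin partner, ran from 3.81 to 35.7 CPM (median 16.8) and from 0.778 to 14.7 CPM (median 5.28), with -1.49 (SE 0.58, edgeR adjusted p = 0.0629), and passed without no_induction 003 or 021 or no_induction_ABX 005. Defb1 was 55.7 ± 12.4 CPM (n = 9) without and 43.3 ± 5.88 CPM (n = 6) with ABX, a log2 fold change of -0.35 (SE 0.13, edgeR adjusted p = 0.046), and with library totals alone it was -0.20 (edgeR adjusted p = 0.197). The call of Defb1 was lost without any 1 of 10 of the 15 libraries, all but no_induction 001, 002, 003 and 005 and no_induction_ABX 003. Without no_induction library 011, which held gastrointestinal transcripts (221 CPM summed against a library median of 10.4) and the highest Defb1, it was -0.26 (edgeR adjusted p = 0.0655).

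Genes around S100a8 moved in both directions in this comparison. Of 11 other S100 genes 5 were lower and none higher, among them S100a7a (-1.51 on the log2 scale), S100a3 (-1.54), S100a14 (-0.55) and S100a16 (-0.43), with edgeR adjusted p from 0.000747 to 0.00451. Of 23 genes of the interleukin-17, interleukin-22 and interleukin-36 axis, whose cytokines act on keratinocytes, 8 were lower and 2 higher. The cytokine Il36g (-1.12) and the receptor subunit Il17rc (-0.57) fell, while the neutrophil attractant Cxcl1 (1.41) and the NF-kB inhibitor Tnfaip3 (0.56) rose. Of 16 receptors of calprotectin and pattern receptors 4 were higher and 1 lower, where 15.4% of all genes were called higher, and the higher ones were Cd14 (0.62), Tlr4 (0.61), Tlr2 (0.62) and Il1r1 (0.24).

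Neutrophil markers differed in level. Ly6g, Mpo and Elane reached at most 0.175, 0.681 and 0.307 CPM in any library, with a median of 0 in no_induction and no_induction_ABX. Listed markers above these included Csf3r, Cxcr2, Mmp9 and Clec4d. Their medians were 2.77, 4.35, 2.81 and 1.87 CPM in no_induction and 2.42, 2.43, 10.3 and 2.21 CPM in no_induction_ABX. Of the 20 neutrophil markers 15 reached 1 CPM somewhere, and their sum ran from 51.2 to 93.7 CPM in no_induction and from 38.7 to 74.5 CPM in no_induction_ABX, most of it from Il1r2 and Padi4. Of 8 tested in this comparison 2 were higher and 2 lower.

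The contrast of S100a8 between induced and uninduced skin under ABX did not pass the test. S100a8 in vitiligo_ABX ran from 2.58 to 101 CPM (median 10.8), with 2 libraries at 45.6 and 101 CPM and 4 at 11 CPM or less. Its log2 fold change against no_induction_ABX was 2.42 (SE 0.87, edgeR adjusted p = 0.136), and 1.43 without library 001. S100a9 had 2.27 (SE 1.05, edgeR adjusted p = 0.245) and Krt6b 2.45 (SE 1.08, edgeR adjusted p = 0.223). None of the 9 genes was called in vitiligo_ABX against no_induction_ABX, where 4.97% of 13876 genes were (3.72% as higher). At an unadjusted p under 0.05 there were 2, Krt6b and S100a8 (20.8% of all genes), DESeq2 called 1, S100a8 (9.25%), and limma-voom called 0 (11%). S100a7a and S100a3 were the 2 of 11 other S100 genes that rose there (1.57 and 1.58, edgeR adjusted p = 0.0348 and 0.0379).

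**Figure D2:**
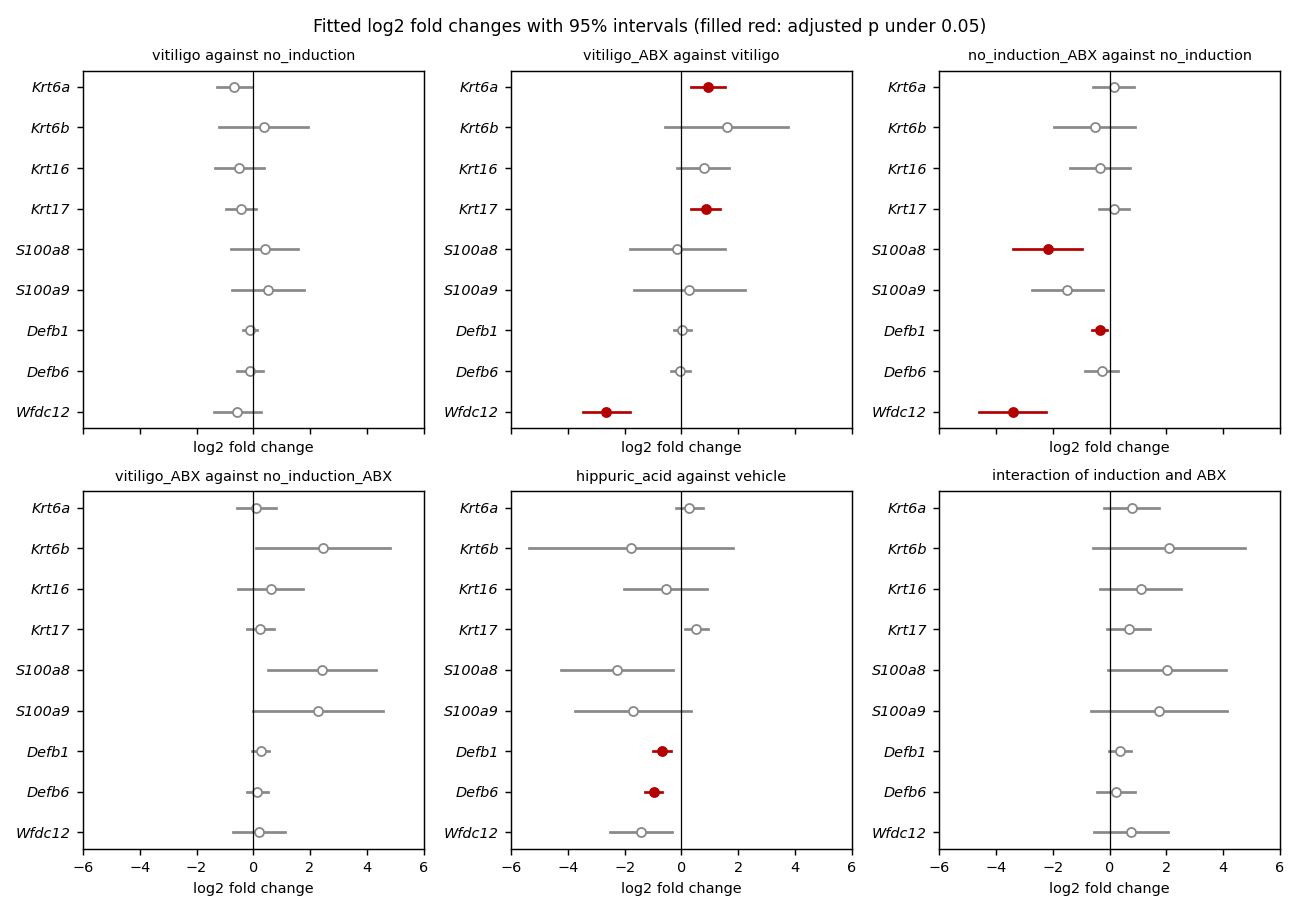
Log2 fold changes of 9 genes (points) with 95% intervals (lines) in 5 comparisons of groups and in the interaction of induction and ABX, all from edgeR, with filled red points for an adjusted p under 0.05. Wfdc12 is red and lowest in both ABX comparisons, Defb1 and Defb6 are red with hippuric acid, and no gene is red for vitiligo against no_induction.

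With vitiligo induction alone none of the 9 genes tested was called, where 7.74% of 13826 genes were. At an unadjusted p under 0.05 the count was 1, Krt6a, at 412 ± 203 CPM (n = 9) in vitiligo and 667 ± 320 CPM (n = 9) in no_induction. Its log2 fold change was -0.68 (95% interval -1.29 to -0.06, edgeR adjusted p = 0.15), limma-voom called it and Krt17 lower, and DESeq2 called 0. Over all genes 26.5% had such an unadjusted p, limma-voom called 42.6% and DESeq2 12.6%, so the members' shares were not above those of all genes. Without vitiligo library 062, the highest of its group at 912 CPM, the edgeR adjusted p of Krt6a was 0.0326, and 11.8% of all genes were called. Krt17 had -0.43 (-0.96 to 0.09), Wfdc12 -0.56 (-1.37 to 0.26) and S100a8 0.40 (-0.78 to 1.57). Defb1 and Defb6 had the narrowest intervals, -0.12 (-0.38 to 0.13) and -0.10 (-0.56 to 0.35). In the related lists, S100a7a fell by 0.78 on the log2 scale (edgeR adjusted p = 0.0306) as the only 1 of 11 other S100 genes called, and Cxcl1 rose by 1.58 (edgeR adjusted p = 0.00535) as the only 1 of 21 in the interleukin-17, interleukin-22 and interleukin-36 axis. Bpifa6 rose by 3.25 (edgeR adjusted p = 0.00266) as the only 1 of 12 other skin antimicrobial genes called, and Cd36, a scavenger receptor that adipocytes also make, by 0.98 (edgeR adjusted p = 0.000332) as the only 1 of 16 receptors. Among 32 EGFR ligands and wound regulators Tgfa fell by 0.54 and Klf6 rose by 0.34 (edgeR adjusted p = 0.0261 and 0.0357), and none of 17 other epithelial keratins or 7 other WAP genes was called. The vitiligo libraries serve here and in vitiligo_ABX against vitiligo, and the no_induction libraries here and in no_induction_ABX against no_induction, so these comparisons are not independent.

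Both tested beta-defensins were lower with hippuric acid than with vehicle. Defb6 stood at 49.2, 51.8, 38.5, 42.0 and 42.3 CPM with hippuric acid and at 109, 85.2 and 71.0 CPM with vehicle. The groups did not overlap, and the highest hippuric_acid library lay below the lowest of the other 33 libraries, no_induction 005 at 54.7 CPM. For this separation from all 33 the share over all genes was not computed, so it does not set Defb6 apart. The log2 fold change of Defb6 was -0.98 (SE 0.14, edgeR adjusted p = 0.00194). Defb1 stood at 29.0, 32.4, 31.4, 31.1 and 39.7 CPM against 47.1, 64.8 and 44.6 CPM, again without overlap, with -0.67 (SE 0.14, edgeR adjusted p = 0.0127). These were the 2 of 9 genes called (13.8% of 14097 genes were, 8.29% as lower), and both were called without any 1 of the 8 libraries (highest adjusted p 0.0417 for Defb1 and 0.00934 for Defb6). Groups of 5 and 3 without overlap were common here, at 21.5% of genes. Against the untreated wild type, vehicle itself had a Defb6 log2 fold change of -0.60 (95% interval -1.37 to 0.17, edgeR adjusted p = 0.999). None of the 9 genes was called in vehicle against no_induction by edgeR, DESeq2 or limma-voom, 0 lay under an unadjusted p of 0.05 in edgeR, and of all 14175 genes 0% were called.

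Keratinocyte markers moved with the defensins. Their summed level ran from 13370 to 17078 CPM with hippuric acid and from 32647 to 43949 CPM with vehicle, and 6 of 10 were lower and none higher. Krt2 (-1.68 on the log2 scale), Krt10 (-1.45), Krt14 (-0.81) and Krt5 (-0.61) were among them, with edgeR adjusted p from 0.000492 to 0.0211. By group medians Krt10 and Krt2 were the largest parts of the sum, at 5358 and 3465 CPM with hippuric acid and 12940 and 9920 CPM with vehicle. Trp63 and Itgb4, chosen after their values were seen, moved less, at 235 and 181 CPM against 258 and 190 CPM. Krt1, Col17a1, Dsg1a and Ivl were at 1030, 551, 1162 and 30.5 CPM against 1493, 775, 1723 and 45.8 CPM. The part of these markers in the fall of Defb1 and Defb6 was not tested. Krt17 was on the other side, at 653, 695, 1095, 632 and 914 CPM against 541, 520 and 601 CPM. The groups did not overlap, and its log2 fold change of 0.52 did not pass (SE 0.19, edgeR adjusted p = 0.0883), while with library totals alone it was 0.69 (edgeR adjusted p = 0.0284). Krt6a had 0.28 (95% interval -0.21 to 0.77).

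Wfdc12, S100a8, S100a9 and Krt6b depended on 1 vehicle library. Wfdc12 was 48.7 ± 21.5 CPM (n = 5) with hippuric acid and 131 ± 104 CPM (n = 3) with vehicle, a log2 fold change of -1.43 (SE 0.48, edgeR adjusted p = 0.0824). Without vehicle library 001 it was -0.54 (edgeR adjusted p = 0.431), and it passed without vehicle 003 or hippuric_acid 5. S100a8 stood at 2.96, 5.33, 9.91, 7.55 and 12.8 CPM against 98.5, 6.56 and 5.99 CPM, so that its change of -2.27 became 0.32 without library 001. S100a9 moved from -1.71 to 1.01, Krt16 from -0.56 to 0.97 and Krt6b from -1.77 to 2.53 in the same way, and none of these passed the test with or without it. Vehicle library 001 was the highest of its group in each of these genes. No directions are drawn for them.

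Among related genes, 4 of 7 other WAP genes were lower with hippuric acid and none higher (median log2 fold change -1.05 beside 0.02 over all genes, of which 8.29% were called lower): Wfdc21 (-1.66), Wfdc18 (-1.68), Wfdc17 (-1.38) and Wfdc5 (-1.05), with edgeR adjusted p from 0.000105 to 0.00708. Of 24 genes of the interleukin-17, interleukin-22 and interleukin-36 axis 8 were lower and none higher. They included the epidermal cytokine Il36g (-1.44), its receptor antagonist Il36rn (-1.33), the antagonist Il1rn (-0.75) and the receptor subunit Il20rb (-1.05). Of 12 other skin antimicrobial genes, with a median of 0.16, only the peptidoglycan receptor Pglyrp4 was called (-0.97), and of 15 other beta-defensins only 1 passed the low-count filter and was not called.

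Defb14 was too scarce for a test in any comparison. It held 102 counts over the 38 libraries, from 0 to 10 in a library, and 0 in 10 of them. All 5 hippuric_acid libraries were at 0, which over the group allows a level of up to 0.0294 CPM (3 counts, counting error only), against means from 0.0614 CPM in vehicle to 0.200 CPM in no_induction. It did not pass the low-count filter in any comparison, so these differences were not tested.

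Per base of transcript the 4 keratins were far apart. Krt17 had a mean of 514 CPM per kilobase of exon, Krt6a 252, Krt16 71.7 and Krt6b 20.7 over the 38 libraries. Defb6 stood at 340 CPM per kilobase, Wfdc12 at 102, Defb1 at 55.6, S100a9 at 35.3, S100a8 at 32.7 and Defb14 at 0.675. Krt6a was 30.9% to 74.8% of Krt17 per kilobase (median 47.7%), a narrow span. Krt6b was 0.585% to 58.5% of Krt6a (median 3.22%), highest in vehicle library 001, and Krt16 3.97% to 62.5% of Krt17, highest in the same library. Counts of Krt6a and Krt6b are uncertain to the extent that reads were split between them: 30.1% of the 100-base windows of Krt6b occur in Krt6a, and their deposited counts were not whole in 38 and 37 libraries for Krt6b and Krt6a. Krt16 counts were not whole in 38 libraries and share 3.1% of windows with Krt14.

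In order of group means, the neighbours differed by no more than the larger of their SDs for every gene except at 3 steps. These were Defb1 from no_induction_ABX (43.3 CPM) to hippuric_acid (32.7 CPM), Defb6 from vehicle (88.3 CPM) to hippuric_acid (44.7 CPM) and Wfdc12 from hippuric_acid (48.7 CPM) to vitiligo_ABX (15.6 CPM). Krt17 was highest in vitiligo_ABX (1071 CPM) and lowest in vehicle (554 CPM), and Krt6a highest in vitiligo_ABX (784 CPM) and lowest in vitiligo (412 CPM). Krt16 had its highest mean in vehicle (149 CPM) and its lowest in vitiligo (85.2 CPM), Krt6b in vitiligo_ABX (106 CPM) and no_induction_ABX (19.4 CPM), with SDs of 205 CPM for the former and 161 CPM in vehicle.

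Within groups several of the genes rose and fell together from library to library. With group means of log2(CPM + 1) subtracted, S100a8 and S100a9 had r = 0.96 (rho = 0.89) over the 38 libraries, and r = 0.95 without the 2 libraries farthest from the median of S100a8. Krt6b and S100a8 had r = 0.91 (rho = 0.89, and r = 0.88 without 2 libraries), and Krt6b and Krt16 r = 0.78 (rho = 0.75, and r = 0.71). Krt6a and Krt17 had r = 0.89 (rho = 0.86, and r = 0.84), from 0.73 to 0.99 in the 4 groups of at least 6 libraries. Each of these r and rho had a permutation p of 1e-05 or 2e-05, where 1e-05 is the smallest that 100000 permutations within groups can give, with adjusted values of 9e-05 or less over the 36 pairs. Krt17 with S100a8 had r = 0.10 (rho = 0.10, and r = 0.10 without 2 libraries), with permutation p of 0.556 and 0.642 and adjusted p of 0.572 and 0.664. Krt17 with Krt6b had r = 0.19 (rho = 0.16, and r = 0.17), with permutation p of 0.239 and 0.425 and adjusted p of 0.301 and 0.51. Krt6a was less closely related to Krt6b (r = 0.44, rho = 0.46, permutation p of 0.00409 and 0.0172, adjusted p of 0.0105 and 0.0412, and r = 0.50 without 2 libraries). It also passed with S100a8 (r = 0.37, permutation p = 0.0226, adjusted p = 0.0428) and S100a9 (r = 0.41, permutation p = 0.0094, adjusted p = 0.0211) by Pearson's r, but not by rho (0.38 and 0.40, permutation p of 0.0481 and 0.042, adjusted p of 0.0797 and 0.0788), with r of 0.42 and 0.46 without 2 libraries. Krt17 and Krt16 had r = 0.53 (rho = 0.52, permutation p of 0.00119 and 0.00563, adjusted p of 0.00428 and 0.0184, and r = 0.56 without 2 libraries). Values within single groups varied: Krt17 and Krt6b had r = 0.66 in no_induction, and Krt6b and S100a8 r = 0.59 in no_induction_ABX. Of the 36 pairs 19 passed at an adjusted p under 0.05 by Pearson's r and 15 by Spearman's rho. The share of other gene pairs that would pass was not computed, so these counts do not set the genes apart. Libraries of a group also differed in cell markers, with keratinocyte sums from 18426 to 36340 CPM in vitiligo, and the part of this was not tested.

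**Figure D3:**
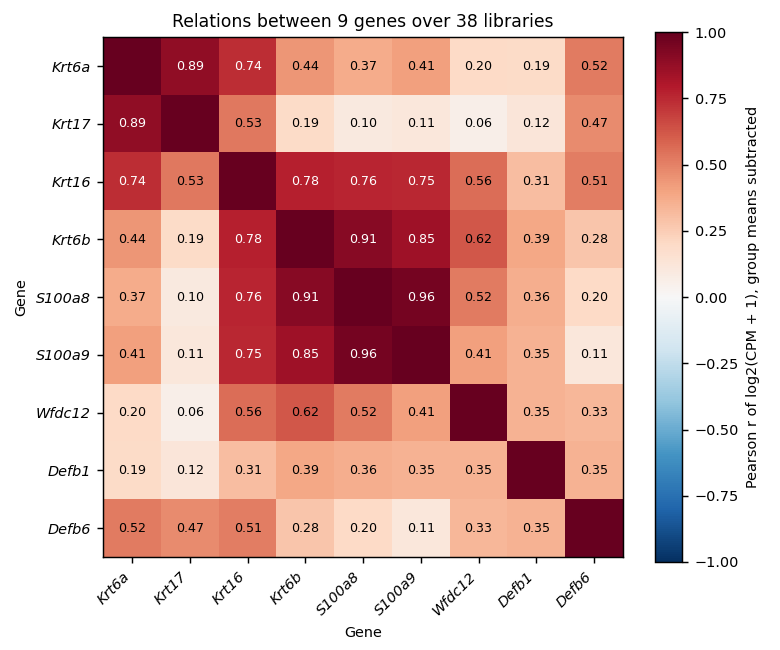
Pearson r between 9 genes over 38 libraries after group means of log2(CPM + 1) were subtracted, from blue (-1) to red (1). Krt6a and Krt17 (0.89) and the pairs among Krt16, Krt6b, S100a8 and S100a9 (0.75 to 0.96) are darkest, with Krt16 and Krt6a next (0.74), and Krt6a has 0.37 to 0.44 with Krt6b, S100a8 and S100a9.

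Krt6b, Krt16, S100a8 and S100a9 reached high levels together in single libraries of several groups. Vitiligo_ABX library 001 had 523 CPM of Krt6b, 429 of Krt16, 101 of S100a8 and 104 of S100a9, each the highest of its group. Vehicle library 001 had 285, 341, 98.5 and 66.1 CPM, vitiligo library 000 had 159, 187, 76.2 and 63.5 CPM, and no_induction library 012 had 80.8, 329, 75.4 and 35.7 CPM. These 4 libraries were also the highest of their groups in summed keratinocyte markers (24206, 43949, 36340 and 46659 CPM), and the part of those cells in these levels was not tested. Vitiligo library 000 and vehicle library 001 also held the most gastrointestinal transcripts of their groups. Their sums were 87.4 and 30.4 CPM, beside group medians of 10.4 and 8.11 CPM. In vitiligo_ABX and no_induction other libraries held the most (003 at 13.4 CPM and 011 at 221 CPM). The part of such transcripts in these levels was not tested either. Vitiligo library 039 had the highest S100a8 and S100a9 of its group (85.3 and 90.4 CPM) with 67.4 CPM of Krt6b, 80.4 CPM of Krt16 and the lowest keratinocyte sum of its group (18426 CPM). At near-equal Krt6b the S100a8 level could differ between groups: hippuric_acid library 5 had 79.2 CPM of Krt6b and 12.8 CPM of S100a8, beside 80.8 and 75.4 CPM in no_induction library 012, and no_induction_ABX library 005 had 40.8 and 11 CPM beside 42.4 and 29.0 CPM in no_induction library 011. These pairs were chosen after their values were seen and carry no test.

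**Figure D4:**
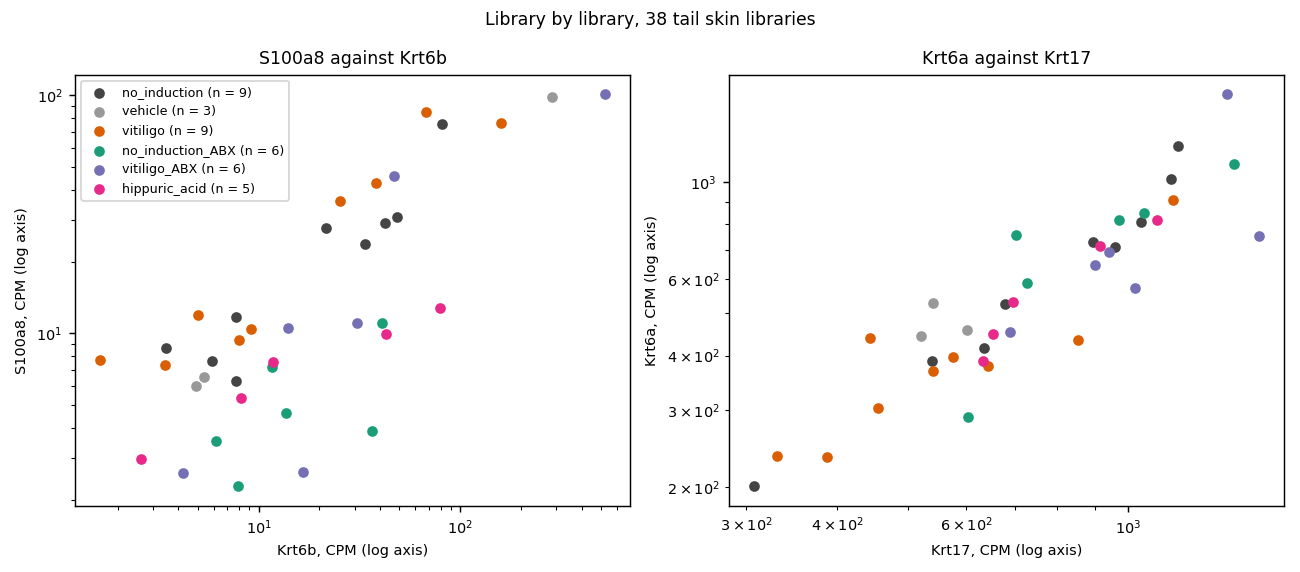
S100a8 against Krt6b and Krt6a against Krt17, in CPM on log axes, with 1 point per library coloured by group. S100a8 rises with Krt6b up to 101 and 523 CPM in vitiligo_ABX library 001, and the hippuric_acid and no_induction_ABX libraries lie at 12.8 CPM of S100a8 or less, while Krt6a rises with Krt17 (r = 0.73 to 0.99 in the 4 groups of at least 6 libraries).

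The genes with the closest patterns differed between members. Over the 38 libraries Krt6a ranked closest to Gpx2, a glutathione peroxidase of epithelia (Spearman rho = 0.895), and Barx2, a homeobox factor of the hair follicle (0.884), both also nearest by Pearson r after subtracting group means (0.898 and 0.881). For Krt17 they were Barx2 (r = 0.895) and Gpx2 (r = 0.888). S100a8 and S100a9 were closest to Lce3e (r = 0.805 and 0.80), a cornified envelope gene of repairing epidermis, and Krt6b to the carbonic anhydrase Car2 (r = 0.795) and the kallikrein Klk13 (r = 0.788). Krt16 was closest to the suprabasal keratin Krt1 (r = 0.85), Defb1 to the epidermal lipase Lipm (r = 0.833) and Defb6 to the cystatins Cst6 (r = 0.748) and Cstb (rho = 0.81). Wfdc12 was closest to the retinol carrier Rbp2 (rho = 0.909), the protease inhibitor Serpinb3d (0.899) and the acute phase gene Saa1 (0.898). These correlations are descriptions chosen as the highest of all genes, over libraries that share groups and depth.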

How the data were processed

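Bulk RNA of tail skin was sequenced after Trizol extraction and oligo(dT) selection, per the labels' protocols. Tools listed in the submitters' processing notes, with no role, are HISAT2, Bowtie2 2.2.8, DESeq2 and StringTie 1.3.1. Build, counting program and strand use: not given in the sources used here. The authors deposited estimated counts per gene (expected counts), not whole in 16.2% of genes, and these were rounded. Of 19220 rows, 1 incomplete row and 1 without a symbol were left out. Exon lengths and shared windows came from GENCODE M21.

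Each comparison was tested in R 4.3.3 with edgeR 4.0.16 (quasi-likelihood F test, TMM, default low-count filter, robust), two-sided, on the libraries of the groups compared, and the interaction on 30. A gene was called at a Benjamini-Hochberg adjusted p under 0.05 over all genes tested, and lists are described by counts only. Correlations used 100000 permutations within groups. Alternatives included DESeq2 1.42.0 and limma-voom (limma 3.58.1). In simulated data, genes drawn from all genes tested were changed 1.5, 2 or 4-fold. Of the 2-fold changes edgeR recovered 88.1% for vitiligo against no_induction (13826 genes) and 70.1% for hippuric_acid against vehicle (14097 genes). It recovered 77.6% for vitiligo_ABX against vitiligo and 82.1% for no_induction_ABX against no_induction. Over all folds 4.6%, 5.84%, 4.61% and 7.02% of calls were false, in that order. These shares do not measure recovery for single members, some of which had wide errors. All libraries of a group differed by more than sampling noise (chi-square per degree of freedom at least 7.58). The most alike pairs of all were those among no_induction 021, 022 and 023 (7.58 to 13.22). These libraries also held the highest Krt6a (811, 1210 and 1016 CPM), Krt17 and Defb6 of no_induction. The tests and permutations took the libraries of a group as independent, and whether these are was not tested. Members and lists were chosen with earlier results of these data known. All members are named, with up to 4 genes per list by smallest p and the 3 most alike genes by each measure. Other list genes named, such as Trp63 and Itgb4, were chosen after their values were seen.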

Additional observations from a re-analysis of the deposited data

Results flagged for a closer look

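In 9 of 45 sets of libraries (9 genes in 5 groups of 5 to 9 libraries) the highest library stood apart from the rest, by the gap to its nearest neighbour over the range of the group, against Dixon's 95% limit. Chance would flag about 1 in 20 of independent sets with a normal spread. The CPM values were often skewed upwards, as for Krt6b in vitiligo_ABX (mean 106, median 23.6 CPM), and the sets share libraries and correlated genes. The count is therefore not measured against that rate. Vitiligo_ABX library 001 did so for Krt6b (0.917), Krt16 (0.866) and Krt6a (0.737). No_induction library 012 did so for S100a8 (0.646) and Wfdc12 (0.633). The others were vitiligo library 062 for Krt6a (0.697), the vitiligo library with 253 CPM for Wfdc12 (0.606) and library 000 for Krt6b (0.582), and hippuric_acid library 5 for Wfdc12 (0.747).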

How the results depend on the processing

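Of 1571 recomputed fold changes of single genes, 1451 kept their direction and side of the threshold, 63 changed direction, 42 lost a call and 15 gained one. Most were of genes not called in the main fit, so the 1451 are largely values that stayed uncalled. The falls of Wfdc12 with ABX and of Defb6 and Defb1 with hippuric acid kept their call without any 1 library. Members called in vitiligo against no_induction were 2 with limma-voom (42.6% of all genes) and 0 to 1 without 1 library (4.97% to 18.6%). In vitiligo_ABX against vitiligo they were 1 at a fold of at least 2 (3.29%) and 1 to 3 without 1 library (8.41% to 20.1%). In no_induction_ABX against no_induction they were 2 to 4 without 1 library (24.5% to 33.9%). DESeq2 called 1 (S100a8; 9.25% of all genes) in vitiligo_ABX against no_induction_ABX. In hippuric_acid against vehicle 0 passed at a fold of at least 2 (3.06%) and 2 to 3 without 1 library (8.18% to 19.6%), and limma-voom called 1 (Krt17; 31.1%) in the interaction. The causes were not tested.

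Directions turned as follows (log2 fold changes), for genes not called in edgeR without a block. With limma-voom they were -0.05 for Krt6b in vitiligo against no_induction, -1.53 for S100a9 and 0.12 for Defb6 in vitiligo_ABX against vitiligo, -0.23 for Krt6a and -0.03 for Krt16 in vitiligo_ABX against no_induction_ABX, 0.78, 0.50 and 0.19 for Krt6b, Krt16 and S100a9 with hippuric acid, -1.0, -0.66, -0.79 and -1.02 for Krt6b, Krt16, S100a8 and S100a9 in vehicle against no_induction, and -0.37 for S100a9 in the interaction. With library totals alone Defb6 was 0.09 in vitiligo_ABX against vitiligo. Library numbers were not shown to pair the libraries. No comparison with at least 3 pairs had every correlation of deviations above 0.1, a rule that cannot exclude pairing. Numbers 2 and 5 in no_induction_ABX against no_induction (0.17 and 0.39) were best with their own number. So were numbers 1 and 5 in vitiligo_ABX against no_induction_ABX (0.37 and 0.28), and 1 and 3 in hippuric_acid against vehicle (0.18 and 0.1). No other shared number was. Number 3 had -0.15 in no_induction_ABX against no_induction and -0.04 in vitiligo_ABX against no_induction_ABX, and number 2 had -0.09 in hippuric_acid against vehicle. With the library number as a replicate block, S100a8 was 1.00 and Defb1 -0.05 in vitiligo_ABX against vitiligo, Krt6b 1.34, Krt16 0.97 and Defb6 0.44 in no_induction_ABX against no_induction, Krt16 0.09 with hippuric acid, and S100a9 -0.23, Defb1 0.08 and Wfdc12 0.83 in vehicle against no_induction, a block chosen after seeing the data. Under the block 3 members were called with ABX under induction (Krt6b at 3.87, Krt16 at 1.60 and Wfdc12), 2 with ABX without it (Defb6, in the turned direction, and Wfdc12) and 2 with hippuric acid (1.11%, 10.3% and 6.29% of all genes), a hint from shared numbers only. No paired analysis was possible for vitiligo against no_induction, because they share fewer than 2 numbers.

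Without 1 library the ranges that crossed 0 were, in vitiligo against no_induction Krt6b -0.46 to 0.76, S100a9 -0.08 to 0.73, Defb6 -0.20 to 0.00; in vitiligo_ABX against vitiligo Krt6b -0.64 to 2.41, S100a8 -1.14 to 0.19, S100a9 -0.74 to 0.87, Defb1 -0.02 to 0.11, Defb6 -0.11 to 0.06; in no_induction_ABX against no_induction Krt6a -0.01 to 0.31, Krt16 -0.50 to 0.02, Krt17 -0.01 to 0.25; in vitiligo_ABX against no_induction_ABX Krt6a -0.22 to 0.26, Krt16 -0.09 to 0.78, Wfdc12 -0.07 to 0.49; in hippuric_acid against vehicle Krt6b -2.59 to 2.53, Krt16 -1.02 to 0.97, S100a8 -2.80 to 0.32, S100a9 -2.26 to 1.01; in vehicle against no_induction Krt6b -2.45 to 2.37, Krt16 -1.22 to 0.72, S100a8 -1.97 to 1.10, S100a9 -2.17 to 1.03, Defb1 -0.28 to 0.00, Wfdc12 -1.02 to 0.26; in interaction of induction and ABX Krt6b -0.14 to 2.92.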
